A study of Rattus norvegicus with 6 samples.

Results

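The Hippo pathway, its effectors YAP and TAZ and a set of their target genes were examined in injured rat sciatic nerve. The 10 genes were chosen by symbol from the 29884 genes of the count table, and all 10 passed the filter on low counts. They comprised the coactivators Yap1 and Wwtr1 (which encodes TAZ), the DNA-binding partners Tead1 and Tead4, the inhibitory kinases Lats1 and Lats2, the adaptors Amotl2 and Ajuba, and the secreted matricellular proteins Ccn1 and Ccn2. Messenger RNA had been sequenced from sciatic nerve of wild type rats with chronic constriction injury (CCI), a model of neuropathic pain in which the nerve is loosely ligated. In 3 libraries the injured nerve was untreated, and in 3 it had received the PLLA-PCL-RVC conduit, a polymer wrap that the design text calls piezoelectric and that carries ropivacaine, a local anaesthetic. All 6 libraries thus came from injured nerve, and neither uninjured nerve nor a conduit without drug is among the samples analysed here. The labels state no strain, age, sex or time after injury.

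In the Hippo pathway, the kinases Stk3 and Stk4 with the scaffold Sav1 activate Lats1 and Lats2, which phosphorylate YAP and TAZ and keep them out of the nucleus. When that restraint is lifted by stretch, a stiff substrate or loss of cell contact, YAP and TAZ bind TEAD factors and switch on genes such as Ccn1, Ccn2, Amotl2 and Lats2, the last of which feeds back on the pathway. In Schwann cells, the myelinating glia of peripheral nerve, YAP and TAZ act with TEAD1 and are required for axon sorting and for myelin gene expression. The pathway is controlled largely through phosphorylation and protein location, which messenger RNA does not measure.

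The RefSeq promoter table (GRCr8, a later build than the mRatBN7.2 named for the counts) matched 7 of the 10 genes. Tead1, Tead4 and Lats2 had no entry. In the 250 bases before the gene start, the sequence GGAATG, the core of the M-CAT element that TEAD factors recognise, was searched on both strands. It was found in 5 of the 7 windows, those of Ccn2, Ccn1, Amotl2, Ajuba and Yap1, against 12.1% of all 33469 promoter windows in the table and 10.1% of those of tested genes. Among the 18 other YAP/TAZ targets described further on, 2 of the 12 windows in the table held it (16.7%), and so did 4 of 8 windows of the serum response genes and 2 of 5 of the myelin and Schwann cell genes. The remaining lists had 3 of 14 (kinases and scaffolds), 2 of 14 (junction and polarity), 1 of 4 (TEAD and vestigial-like), 0 of 1 (other CCN) and 0 of 6 (immediate early). Ccn1, Ccn2 and Amotl2 are known targets of YAP and TAZ with TEAD, so the 5 of 7 is not independent of the choice of genes. The 4 printed here belong to the targets and adaptors that the results turn on. Capitals mark GGAATG or its reverse complement CATTCC. The windows are chr1:22624615-22624864 (minus strand), chr2:237225690-237225939 (minus strand), chr8:112182376-112182625 (plus strand) and chr15:32000043-32000292 (minus strand).
Ccn2: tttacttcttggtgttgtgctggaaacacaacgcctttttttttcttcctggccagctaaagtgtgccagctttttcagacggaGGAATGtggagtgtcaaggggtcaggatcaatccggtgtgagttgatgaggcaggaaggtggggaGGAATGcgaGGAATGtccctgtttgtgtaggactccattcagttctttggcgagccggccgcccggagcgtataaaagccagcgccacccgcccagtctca
Ccn1: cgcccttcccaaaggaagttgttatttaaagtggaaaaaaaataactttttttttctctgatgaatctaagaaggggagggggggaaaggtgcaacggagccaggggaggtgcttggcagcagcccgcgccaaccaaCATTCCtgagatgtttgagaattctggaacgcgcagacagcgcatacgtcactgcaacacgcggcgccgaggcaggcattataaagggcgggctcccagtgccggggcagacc
Amotl2: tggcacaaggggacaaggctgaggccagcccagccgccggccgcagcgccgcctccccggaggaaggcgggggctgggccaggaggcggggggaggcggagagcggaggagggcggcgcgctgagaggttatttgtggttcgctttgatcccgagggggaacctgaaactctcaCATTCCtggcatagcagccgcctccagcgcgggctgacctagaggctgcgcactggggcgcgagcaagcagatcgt
Ajuba: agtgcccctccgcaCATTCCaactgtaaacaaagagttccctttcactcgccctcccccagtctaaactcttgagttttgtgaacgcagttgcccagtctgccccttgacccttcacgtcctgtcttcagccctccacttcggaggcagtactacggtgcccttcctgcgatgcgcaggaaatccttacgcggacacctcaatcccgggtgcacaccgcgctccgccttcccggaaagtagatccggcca
Ccn2 held 3 copies, at 166 to 161, 101 to 96 and 92 to 87 bases before the start, all on the strand of the gene. Ccn1 held 1 copy (113 to 108 bases), Amotl2 1 (76 to 71 bases) and Ajuba 1 (236 to 231 bases), all on the opposite strand, and Yap1 held 1 at 116 to 111 bases. Neither the AP-1 element TGANTCA (6.34% of all windows) nor the CArG box of serum response factor (1.5%) was found in the 7 windows, searched on both strands. GGAATG thus stood before Amotl2 and Ajuba, which were higher in conduit nerves, and before Ccn1, which was lower.

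Of the 10 genes, 5 rose in conduit nerves (Ajuba, Amotl2, Lats2, Tead1 and Tead4), Ccn1 fell, and 4 were not called (Yap1, Wwtr1, Lats1 and Ccn2). A gene was called at a Benjamini-Hochberg adjusted p under 0.05 in edgeR's quasi-likelihood test over 15464 tested genes, of which 50.2% were called, 24.0% higher and 26.2% lower. The median log2 fold change, conduit minus untreated, was 0.50 over the 10 genes and -0.043 over all tested genes. For 6 of the 10 genes the groups were free of overlap, against 61.7% of all tested genes. Values below are CPM, counts brought to a common library size, after TMM scaling, which corrects for a few genes taking much of a library, and group values are mean ± SD of 3 libraries. Scaling by library totals instead moved the median log2 fold change of all tested genes by -0.39, to -0.43, and the split of all calls went from 47.8% to 25.9% higher. With library totals, 4 of the 10 genes were called higher (14.8% of all tested genes were) and 2 lower (42.4%), since Tead4 lost its call and Ccn2 gained one as lower. The tissue is bulk nerve, in which fewer cells of a type and less RNA per cell cannot be told apart.

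**Figure D1:**
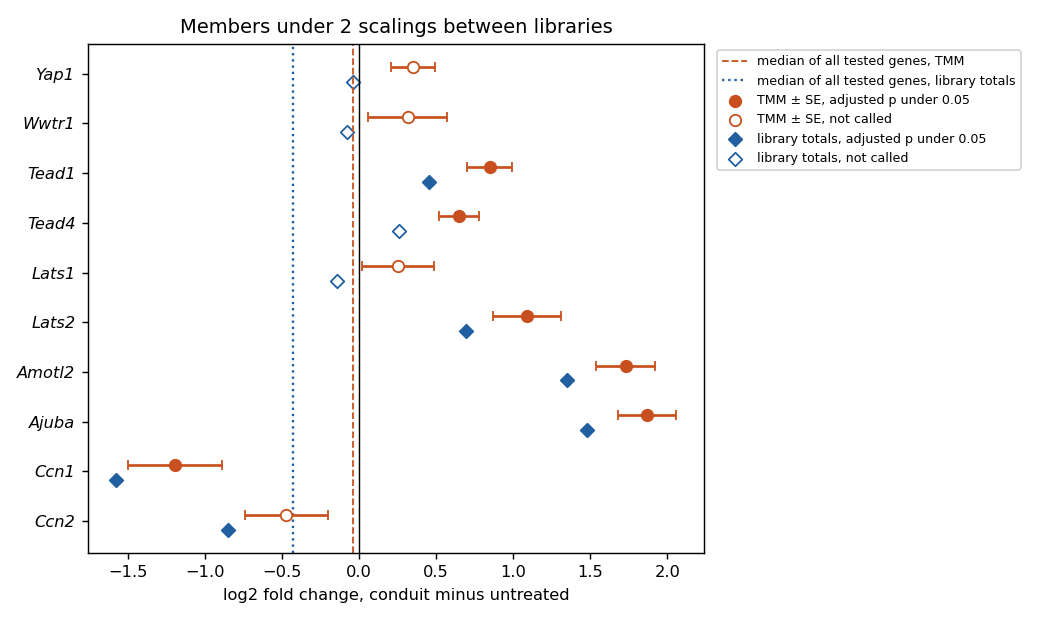
Log2 fold change of each of the 10 genes (x axis, conduit minus untreated) with TMM scaling (circles, with the standard error from edgeR) and with scaling by library totals (diamonds). Filled symbols have an adjusted p under 0.05, and the vertical lines give the median of all tested genes under each scaling. Ajuba, Amotl2, Lats2 and Tead1 were called higher and Ccn1 lower under both, while the open circles of Yap1, Wwtr1 and Lats1 lie above 0 and their diamonds below it.

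By level per gene length, Ccn2 and Ccn1 were the most abundant of the 10 in untreated nerve, and Ccn1 was no longer near the top in conduit nerve. The deposited FPKM (fragments scaled to gene length and library total) put Ccn2 first in untreated nerve at 59.0 ± 8.69, followed by Ccn1 at 51.7 ± 22.3, and the ranges of the 3 libraries overlapped between them. Yap1 (29.6 ± 2.85 FPKM) came next, below the range of Ccn1, and Wwtr1 (28.6 ± 10.6 FPKM) overlapped it. Lats2, Tead1, Amotl2, Ajuba, Lats1 and Tead4 followed, from 12.3 down to 4.97 FPKM, each overlapping its neighbour. In conduit nerve Ccn2 was still first (32.6 ± 10.98 FPKM), but Ccn1 had moved from the second to the seventh place (17.3 ± 3.15 FPKM), behind Yap1, Wwtr1, Amotl2 (23.5 ± 5.78), Ajuba (23.3 ± 2.34) and Lats2 (20.0 ± 2.35). Neighbours overlapped in range from Ccn2 down to Tead1 in that group, and Tead1, Tead4 and Lats1 stood apart from each other. FPKM is scaled by library totals, so a gene's FPKM in the 2 groups carries the shift described above.

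Neither coactivator was called. Yap1 was at 111.6, 123 and 109 CPM in untreated replicates 1, 2 and 3, and at 153, 123 and 161 CPM in the conduit replicates. Conduit replicate 2 lay within the untreated range, and the log2 fold change was 0.35 ± 0.14 SE (adjusted p = 0.0801). DESeq2, which called 26.4% of tested genes higher, did so for Yap1 (0.37, adjusted p = 0.0380), and scaling by library totals put it at -0.038. Wwtr1 was at 31.6, 53.2 and 30.1 CPM in untreated and at 49.8, 36.6 and 56.3 CPM in conduit libraries. Untreated replicate 2 stood among the conduit libraries, so the groups overlapped (0.31 ± 0.26 SE, adjusted p = 0.346, and -0.077 with library totals). Without that library Wwtr1 was called higher (0.63, adjusted p = 0.0370), as were 23.9% of tested genes.

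The DNA-binding partners rose. Tead1 was at 87.8, 118 and 98.3 CPM in untreated and 172, 188 and 187 CPM in conduit libraries. Every conduit library was above every untreated one, and the means were 102 ± 15.6 and 182 ± 8.80 CPM (log2 fold change 0.85 ± 0.15 SE, adjusted p = 0.00270). Tead4 was at 33.6, 31.8 and 27.8 CPM in untreated and at 53.7, 45.9 and 46.6 CPM in conduit libraries, also without overlap (0.65 ± 0.13 SE, adjusted p = 0.00491). With library totals Tead1 kept its call (0.45, adjusted p = 0.0425) and Tead4 did not (0.26, adjusted p = 0.126). Of the other TEAD genes, Tead3 rose (1.07 ± 0.23 SE), and Tead2 fell from 4.42 to 5.22 CPM in untreated to 1.70 to 2.31 CPM in conduit libraries (-1.37 ± 0.25 SE). Among the vestigial-like cofactors, which bind TEAD factors, Vgll3 was at 23.3 to 33.9 CPM in untreated and 87.2 to 111 CPM in conduit libraries (1.86 ± 0.18 SE), and Vgll4, which opposes YAP at TEAD, rose as well (0.81 ± 0.16 SE). Vgll1 had no count, and Vgll2, a gene of skeletal muscle, was at 4.89 CPM in untreated replicate 1 and at most 0.0404 CPM elsewhere. Of the 4 TEAD and vestigial-like genes tested outside the chosen 10, 3 rose and 1 fell.

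The LATS kinases gave different results. Lats2 was at 40.8, 73.6 and 50.3 CPM in untreated and at 122, 104 and 124 CPM in conduit libraries. The groups did not overlap, and the means were 54.9 ± 16.8 and 117 ± 10.8 CPM, a 2.13-fold rise (log2 fold change 1.09 ± 0.22 SE, adjusted p = 0.00540). Lats1 was at 27.3, 52.6 and 34.4 CPM in untreated and at 41.3, 45.7 and 49.2 CPM in conduit libraries. The conduit values fell inside the untreated range, and Lats1 was not called (0.25 ± 0.24 SE, adjusted p = 0.402, and -0.14 with library totals). Untreated replicate 2 was the highest untreated library for 5 of the 10 genes (Yap1, Wwtr1, Tead1, Lats1 and Lats2), and without it Lats1 was called higher (0.56, adjusted p = 0.0220). Without untreated replicate 1 the log2 fold change of Lats1 was 0.059 (adjusted p = 0.834), and without untreated replicate 3 it was 0.19. Untreated replicate 2 also had the lowest summed Schwann cell markers (7841 CPM, against 14006 and 18282 CPM in the other untreated libraries). The part of these markers in the values above was not tested.

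The adaptors showed the highest fold changes of the 10. Ajuba, a LIM protein that binds LATS kinases and restrains them, was at 20.3, 20.9 and 29.8 CPM in untreated and at 89.5, 95.9 and 74.2 CPM in conduit libraries. The lowest conduit library was above the highest untreated one, and the means of 23.7 ± 5.30 and 86.5 ± 11.2 CPM differed 3.65-fold (log2 fold change 1.87 ± 0.19 SE, adjusted p = 0.000275). Amotl2, an angiomotin that holds YAP at cell junctions and is itself a YAP target, was at 36.4, 35.9 and 44.8 CPM in untreated and at 99.7, 132 and 157 CPM in conduit libraries. It too separated the groups (39.1 ± 5.01 against 129.6 ± 28.9 CPM, log2 fold change 1.73 ± 0.19 SE, adjusted p = 0.000415). Both kept their calls in all 12 alternatives run, with log2 fold changes from 1.48 to 2.07 for Ajuba and from 1.35 to 1.91 for Amotl2. Of their relatives, Amotl1 fell (-0.88 ± 0.18 SE), and Amot, the founding angiomotin, was not called (-0.19 ± 0.29 SE). Limd1 (0.040 ± 0.11 SE) and Wtip (0.46 ± 0.19 SE), LIM proteins of the Ajuba family, were not called either, although Limd1 was lower with library totals (-0.35, adjusted p = 0.0454) and Wtip higher without untreated replicate 3 (adjusted p = 0.0313).

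**Figure D2:**
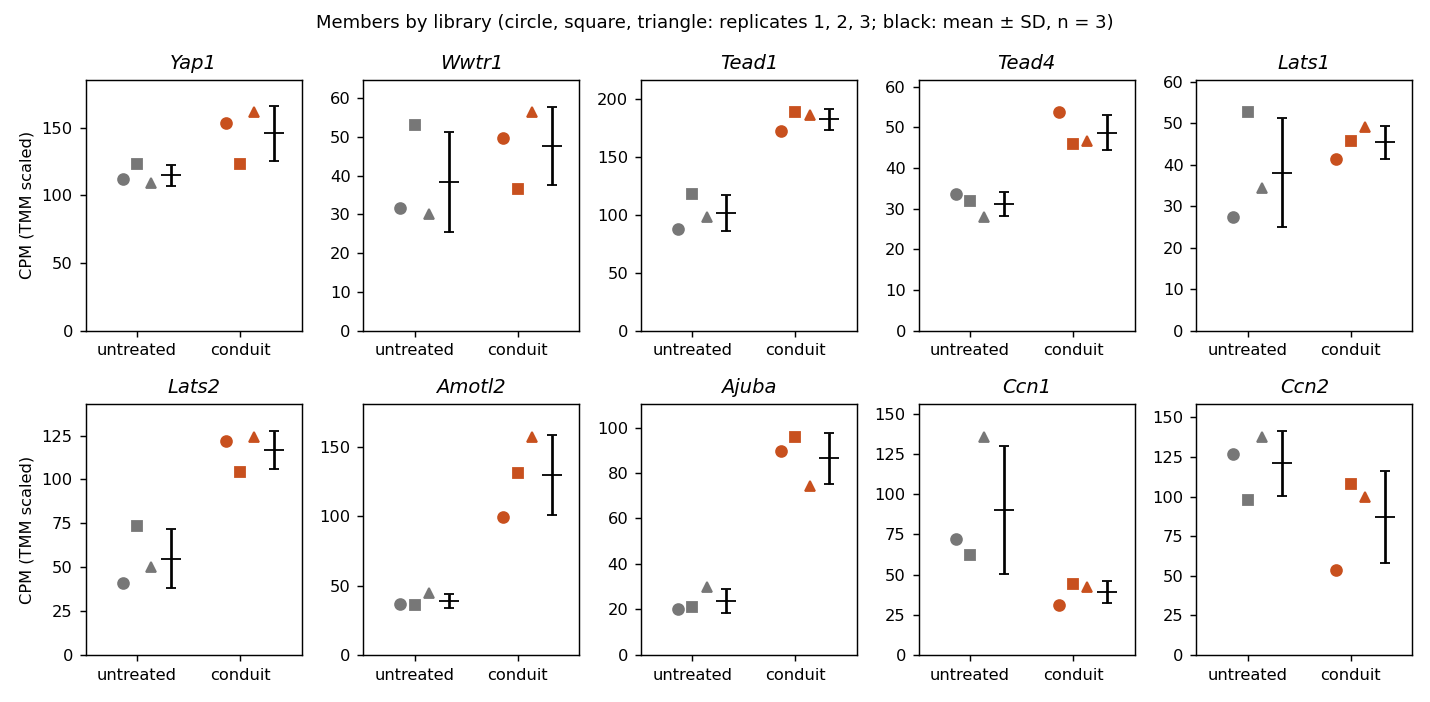
CPM after TMM scaling (y axis, from 0) of the 10 genes in each untreated (grey) and conduit (orange) library, with the mean ± SD of 3 libraries in black. Tead1, Tead4, Lats2, Amotl2 and Ajuba lie higher and Ccn1 lower in all 3 conduit libraries, while Yap1, Wwtr1, Lats1 and Ccn2 overlap between groups.

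Ccn1 went the other way from the adaptors. Ccn1 (CYR61), which binds integrins and the matrix, was at 72.3, 62.3 and 136 CPM in untreated and at 31.3, 44.3 and 42.2 CPM in conduit libraries. All conduit libraries were below all untreated ones, although untreated replicate 3 stood far above the other 2, and the means were 90.1 ± 39.9 and 39.3 ± 7.0 CPM (log2 fold change -1.20 ± 0.30 SE, adjusted p = 0.0140). Untreated replicate 3 was also the only untreated library of its batch number, so its height and its batch cannot be told apart. Without conduit replicate 1, where 19.9% of tested genes were lower, the call was lost (-1.03, adjusted p = 0.0533), and without untreated replicate 3 the log2 fold change was -0.77. Ccn2 (CTGF), a profibrotic factor that also answers to transforming growth factor beta, was at 127, 97.9 and 138 CPM in untreated and at 53.8, 108 and 99.9 CPM in conduit libraries. Conduit replicate 1 alone was clear of the untreated range, and Ccn2 was not called (-0.47 ± 0.27 SE, adjusted p = 0.182, or -0.20 without that library). With library totals it was called lower (-0.85, adjusted p = 0.0282).

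The rest of the CCN family was split. Ccn4 (WISP1), a Wnt-induced member, was at 27.6 to 38.5 CPM in untreated and 121 to 156 CPM in conduit libraries (2.05 ± 0.18 SE). Ccn5 fell (-1.39 ± 0.40 SE) and Ccn3 was not called (-0.60 ± 0.32 SE, and called lower at -0.99 with library totals and at -0.61 with the replicate block). The call of Ccn5 was lost (adjusted p from 0.0506 to 0.0698) when untreated replicate 1 or 3, or one of conduit replicates 1 and 2, was left out, and Ccn6 had too few counts to test.

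Ratios of related genes within a library do not depend on the scaling between libraries. The count ratio of Lats2 to Lats1 was 1.49, 1.40 and 1.46 in untreated libraries and 2.95, 2.28 and 2.53 in conduit libraries. The untreated values lay close together and all below the conduit values, a difference of 0.83 on the log2 scale (0.54 ± 0.049 against 1.36 ± 0.19, exact two-sided permutation p = 0.1, or 0.4 adjusted over the 4 ratios). No lower p than 0.1 is possible with 3 libraries in each group. The ratio of Ccn2 to Ccn1 was 1.76, 1.57 and 1.014 in untreated and 1.72, 2.43 and 2.37 in conduit libraries, which overlap at conduit replicate 1 (log2 difference 0.60, exact permutation p = 0.2, adjusted 0.4). Without untreated replicate 3 that difference was 0.37. For Tead4 to Tead1 the log2 difference was -0.21 (exact permutation p = 0.4, adjusted 0.533), and -0.049 without untreated replicate 1. Wwtr1 to Yap1 had log2 means of -1.63 ± 0.36 and -1.63 ± 0.12, with 0.432 as the highest count ratio, in untreated replicate 2 (exact permutation p = 1). Of the 4 ratios, only Lats2 to Lats1 had groups that did not overlap.

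**Figure D3:**
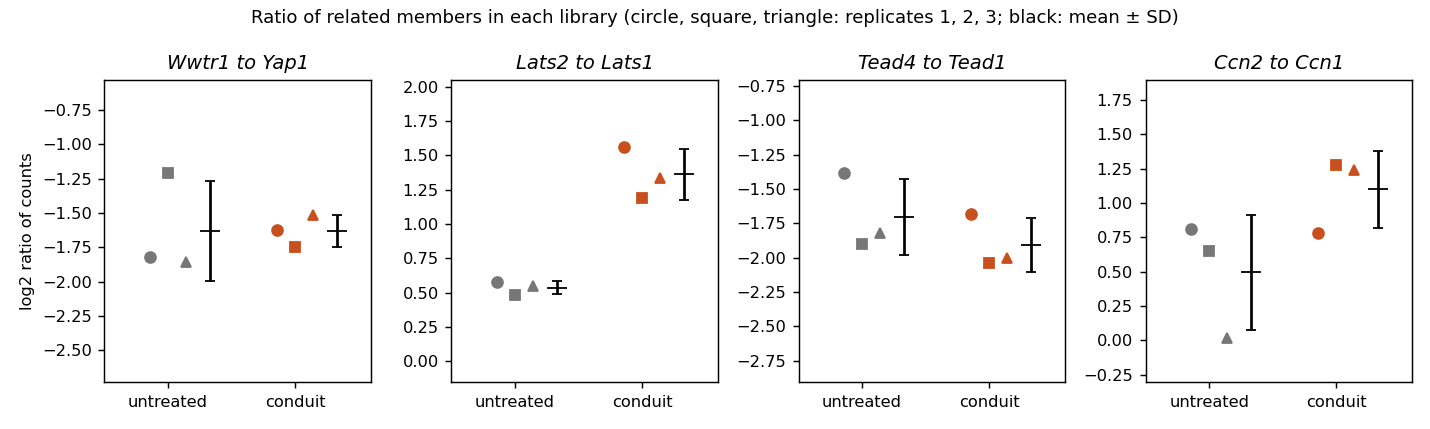
Log2 ratio of counts (y axis) of Wwtr1 to Yap1, Lats2 to Lats1, Tead4 to Tead1 and Ccn2 to Ccn1 in each untreated (grey) and conduit (orange) library, with mean ± SD of 3 libraries in black. Each panel spans the same log2 range, and the Lats2 to Lats1 ratio lies between 0.48 and 0.58 in untreated and between 1.19 and 1.56 in conduit libraries.

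Of 16 kinases and scaffolds upstream of LATS, 6 rose, 1 fell and 9 were not called, with a median log2 fold change of 0.34. Of all tested genes 24.0% were called higher and 26.2% lower. With library totals 2 of the 16 were higher and 3 lower, against 14.8% and 42.4% of all tested genes. Without conduit replicate 2 the number higher was 3, while that over all tested genes went from 3711 to 2921. Wwc2, a relative of the KIBRA scaffold that activates LATS, was at 31.7, 49.0 and 45.3 CPM in untreated and 133, 113 and 112 CPM in conduit libraries (1.51 ± 0.19 SE). KIBRA itself, Wwc1, rose from at most 0.343 CPM to 0.935 to 2.72 CPM (2.70 ± 0.54 SE). Taok3, a kinase that acts above the Stk3 and Stk4 step, rose by TMM scaling (0.84 ± 0.15 SE) and was not called with library totals (0.44, adjusted p = 0.0546). Map4k4, the most abundant of this list per gene length, was called higher at 0.60 ± 0.20 SE (adjusted p = 0.0394) and lost its call in 7 of 12 alternatives, namely library totals, the replicate block and each left-out library other than untreated replicate 2 (adjusted p from 0.0578 to 0.436). Of the core genes, Stk4 fell (-0.56 ± 0.13 SE), whereas Stk3 (0.32 ± 0.15 SE), Sav1 (0.11 ± 0.10 SE), Nf2 (0.16 ± 0.20 SE) and Mob1a (-0.34 ± 0.12 SE) were not called. With library totals Stk3 and Nf2 were below 0, and Sav1 (-0.28, adjusted p = 0.0485) and Mob1a (-0.73, adjusted p = 0.00307) were called lower. Mob1a was called lower by DESeq2 (adjusted p = 0.0455), with the 5 CPM filter (0.0442) and without untreated replicate 1 (0.0362) as well. Stk3 and Nf2 were called higher without untreated replicate 2 (adjusted p = 0.0215 and 0.0185), and Stk4 lost its call without conduit replicate 3 (adjusted p = 0.0503).

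Junction and polarity proteins, which tether YAP or feed cell contact into the pathway, had 7 of 16 tested genes higher and 2 lower, with a median of 0.44. The shares over all tested genes were 24.0% higher and 26.2% lower. Scrib, a polarity scaffold, rose (1.09 ± 0.11 SE), as did Ptpn14, a phosphatase that holds YAP in the cytoplasm (1.57 ± 0.17 SE). Ctnna1, alpha-catenin and the most abundant of the list per gene length, was not called (0.37 ± 0.15 SE, and -0.020 with library totals), although DESeq2 and the fit without untreated replicate 2 called it higher (adjusted p = 0.0288 and 0.0169). Of the giant cadherins, Fat1 rose (1.27 ± 0.19 SE) and Dchs1, a binding partner of Fat cadherins, fell (-0.95 ± 0.28 SE), but was not called without untreated replicate 2 or conduit replicate 1 (adjusted p = 0.0614 and 0.0687). Tjp1, Llgl1 and Dchs2 were also called higher in this list, of which Tjp1 and Llgl1 were not called with library totals.

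**Figure D4:**
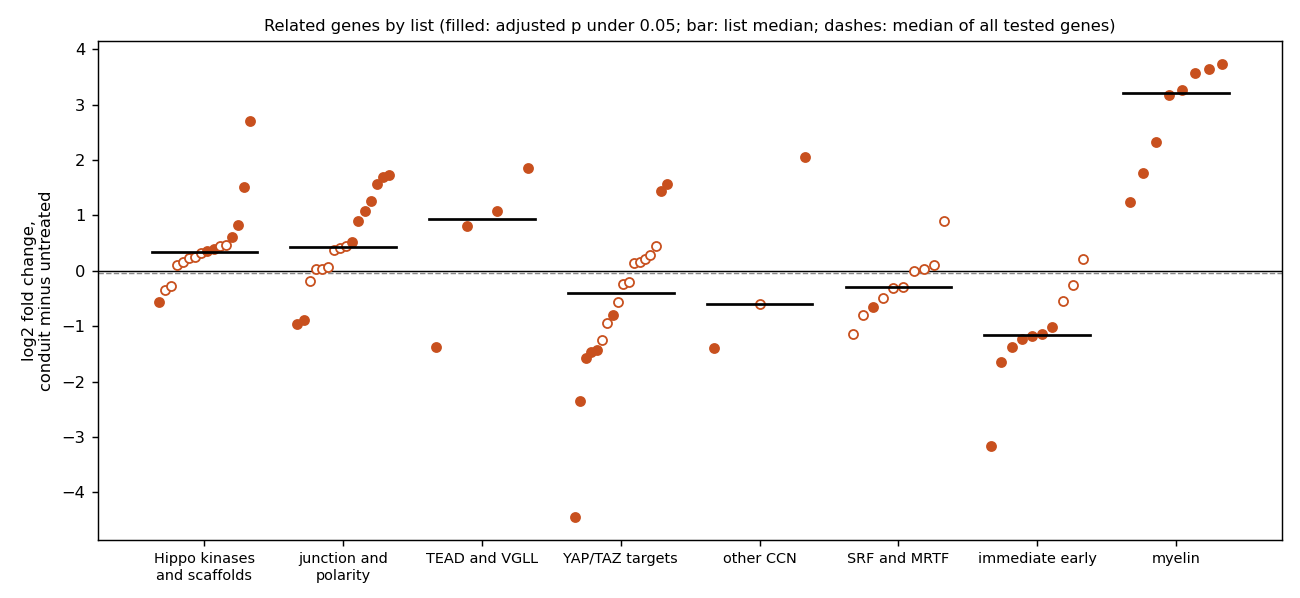
Log2 fold change (y axis, conduit minus untreated, TMM scaling) of each tested gene in 8 lists of related genes, sorted within a list. Filled points have an adjusted p under 0.05, bars give list medians, and the dashed line the median of all tested genes. The lists of YAP/TAZ targets and immediate early genes have medians of -0.40 and -1.15, or -0.78 and -1.54 with library totals. The median of the targets is -0.19 without conduit replicate 1 and -0.64 without untreated replicate 1. The kinase and junction lists have medians of 0.34 and 0.44, or -0.052 and 0.052 with library totals. The median of all tested genes is -0.043, or -0.43 with library totals.

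The wider set of YAP/TAZ targets went both ways. A set of 22 target genes known from cancer cells holds Amotl2, Lats2, Ccn1 and Ccn2 of the chosen 10 and 18 others. Over all tested genes 24.0% were called higher and 26.2% lower, and in the whole set of 22, 4 rose, 7 fell and 11 were not called. The median log2 fold change of the set was -0.36. Without conduit replicate 1 the number that fell was 4 and the median was -0.070, against -0.033 over all tested genes. The median of the set was -0.17 without untreated replicate 3 and -0.57 without conduit replicate 3, so its size rests on single libraries. With library totals it was -0.73, where the median of all tested genes moved as well, from -0.043 to -0.43. Of the 18 others 2 rose, Ptpn14 and Arhgef17, and 6 fell. Arhgef17, an exchange factor for small GTPases, was at 57.9 to 71.0 CPM in untreated and 165 to 183 CPM in conduit libraries (1.45 ± 0.13 SE). Myof, myoferlin, a membrane repair protein, fell from 124 to 152 CPM in untreated to 49.4 to 50.7 CPM in conduit libraries (-1.46 ± 0.12 SE). Gadd45a, a stress and growth arrest gene, fell with a log2 fold change of -2.34 ± 0.36 SE. Igfbp3, Nt5e and Fjx1 fell as well (-1.43 ± 0.23, -1.57 ± 0.33 and -0.79 ± 0.19 SE), and Fjx1 was not called when conduit replicate 1 (adjusted p = 0.0596) or 3 (0.0553) was left out.

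Ankrd1, a frequent YAP readout that is also a gene of striated muscle, was at 42.03 CPM in untreated replicate 1 and at 0.565 to 1.94 CPM in all other libraries. It was called lower (-4.44 ± 1.49 SE), but not without that library (-0.92, adjusted p = 0.233), nor without conduit replicate 1, 2 or 3 or with the replicate block (adjusted p from 0.0955 to 0.186). In untreated replicate 1 the summed skeletal muscle markers were 11943 CPM, against 6.67 to 86.8 CPM elsewhere. Of the 8 muscle markers tested 7 were called lower, or 0 with the replicate block or with DESeq2. With untreated replicate 1 left out, 4 of 8 tested muscle markers were called lower and 1 higher. When conduit replicate 1, 2 or 3 was left out, 0 of 9 tested muscle markers were called lower. Their part in the Ankrd1 value was not tested.

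Ccn1 and Ccn2 also answer to serum response factor and to immediate early signals, so both gene groups were read beside them. Of 10 genes of serum response factor, its MRTF cofactors and their contractile targets, Mrtfa fell (-0.65 ± 0.15 SE) and 9 were not called, among them Tagln, the most abundant per gene length (-0.49 ± 0.23 SE). With library totals 5 were lower, Tagln among them (-0.88), as were 42.4% of all tested genes. Of 10 immediate early genes 7 fell and 0 rose, with a median of -1.15. Fos was at 42.2 to 73.2 CPM in untreated and 3.87 to 8.22 CPM in conduit libraries (-3.16 ± 0.33 SE), and Jun (-1.64 ± 0.20 SE), Junb (-1.17 ± 0.13 SE) and Ier2 (-1.14 ± 0.13 SE) fell too. The summed immediate early genes were 799.6 to 854 CPM in untreated and 328 to 405 CPM in conduit libraries, and their part in the fall of Ccn1 was not tested.

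Markers of the cells in nerve shifted between the same libraries. Of 8 Schwann cell markers 7 rose, and their sum went from 7841 to 18282 CPM in untreated to 100579 to 137996 CPM in conduit libraries. All 8 genes of the list of myelin genes and Schwann cell matrix receptors rose, among them Mbp (3.17 ± 0.24 SE), Prx (3.73 ± 0.32 SE) and Itga6, the laminin receptor subunit (2.33 ± 0.14 SE). The 4 perineurial markers tested rose (summed 333 to 532 against 2025 to 2444 CPM), with the fifth, Lypd2, at 0 counts throughout. All 8 macrophage markers fell (2710 to 3204 against 357 to 613 CPM), as did all 8 proliferation genes (243.8 to 330 against 13.3 to 24.3 CPM). Of 8 fibroblast markers 1 rose and 1 fell, and their sums were 8454 to 17446 and 14965 to 29605 CPM. Untreated replicate 3, where Ccn1 was highest, had the highest fibroblast sum of the untreated libraries. The same library also had the highest untreated sums of Schwann, perineurial, mural and adipocyte markers. Of 7 endothelial markers 1 rose and 1 fell (756 to 1025 against 757 to 895 CPM), and likewise of 7 mural cell markers (467 to 734 against 637 to 804 CPM). Of 5 T cell markers 4 fell (8.46 to 15.5 against 2.23 to 3.99 CPM), and of 7 adipocyte markers 2 rose, with sums of 398 to 869 and 365 to 1895 CPM. The part of these shifts in the values of the 10 genes was not tested.

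**Figure D5:**
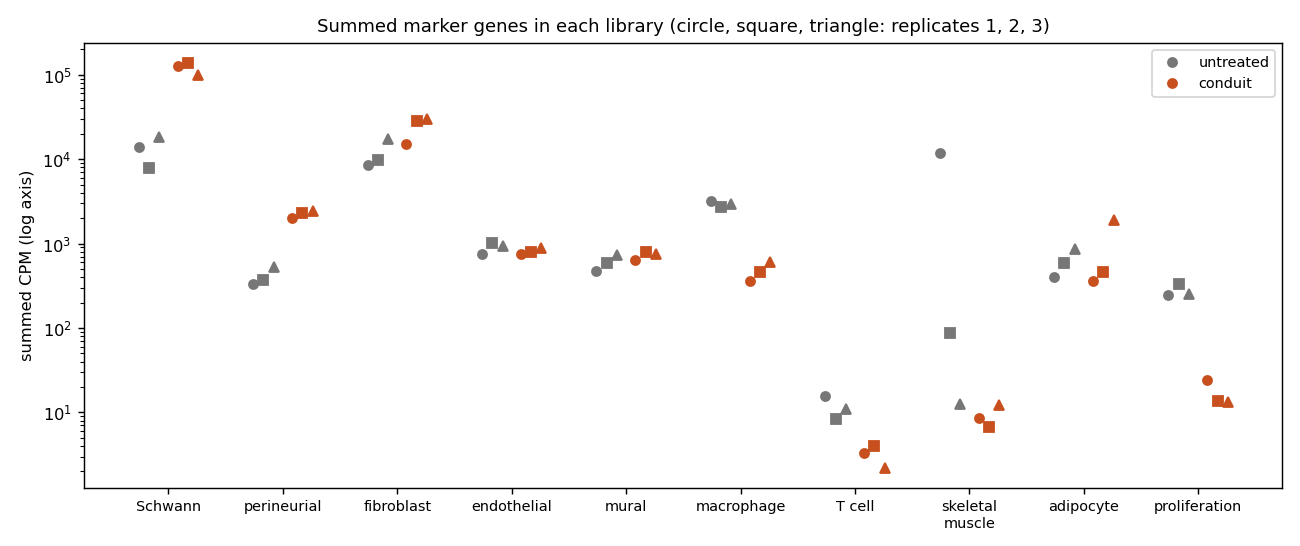
Summed CPM (y axis, log scale) of fixed marker lists in each untreated (grey) and conduit (orange) library. Schwann and perineurial markers lie higher and macrophage, T cell and proliferation genes lower in all conduit libraries, and untreated replicate 1 stands out in skeletal muscle markers at 11943 CPM.

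Over the 6 libraries, the genes most like 4 of the 10 in profile were found among 11340 tested genes with a mean of at least 5 CPM, by the Euclidean distance of mean-centred log2 CPM. The 6 points share their libraries and fall into 2 groups, so the Pearson r given here only describes the match. Yap1 was nearest to Triobp, an actin-bundling protein gene (distance 0.16, r = 0.963), then Tti2 and Zfp236. Wwtr1 was nearest to Echdc1 (0.15, r = 0.988), then Zfp62 and Fam177a1. Ccn1 was nearest to Efemp2, an elastic fibre protein gene (0.45, r = 0.989), followed by Fkbp10, a collagen chaperone (0.50), and Cd83 (0.56). Ccn2 was nearest to Nxpe1 (0.29, r = 0.973), then Glb1 and Apod.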

How the data were processed

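Messenger RNA of 6 sciatic nerve libraries was sequenced, 3 untreated and 3 with the conduit. The authors deposited raw counts per gene and FPKM per library. The tools named, per the submitters' processing notes, are HTSeq, HISAT2, fastp and DESeq2, and the build is mRatBN7.2 (versions and roles are not given in the sources used here). Nor is strand use given, so reads of overlapping and antisense genes may not be told apart. Library totals were 38401951 to 42225086 counts. The deposited FPKM matched counts over 1 gene length and the library total within a tolerance of 0.0001 in all 20504 genes checked.

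Counts were tested with edgeR 4.0.16 (quasi-likelihood F test, two-sided, TMM scaling, group alone) in R 4.3.3, on 15464 genes kept by filterByExpr (minimum count 10), with Benjamini-Hochberg adjustment. SE is the size of the log2 fold change over the square root of F. The test was also run on simulated counts, with results not given here. Other settings tried were library totals or RLE scaling, DESeq2 1.42.0, no low-count filter, 5 CPM in 3 libraries, a replicate block, and each library left out. The labels carry 5 batch numbers, 2 in untreated and 3 in conduit libraries, and no batch holds both groups, so batch and treatment cannot be told apart. Untreated replicates 1 and 2 share a batch number, while untreated replicate 3 and each conduit library have their own. The labels do not say that libraries came from separate animals, so p-values measure the spread between libraries. The 10 genes and all lists were chosen with earlier results of these data known. From each related list, up to 3 called genes with the smallest adjusted p and the most abundant gene by FPKM were named, plus Ankrd1, and some items that this rule selects are not reported here. Other genes named (such as Amotl1, Fat1, Stk4 and Igfbp3) were chosen after their values were seen.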

Additional observations from a re-analysis of the deposited data

How the results depend on the processing

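Ajuba, Amotl2, Lats2 and Tead1 kept direction and call in all 12 alternatives. With library totals, which lower all genes together, 2291 genes were called higher (14.8% of those tested) and 6554 lower (42.4%). Yap1 (-0.038), Wwtr1 (-0.077), Lats1 (-0.14) and Ctnna1 (-0.020) changed sign. In that setting 2 of the 10 genes, 2 other CCN genes, 5 serum response genes and 3 kinase genes were lower, and 2 kinase genes were higher. The kinase list had 2 genes lower with DESeq2 or the 5 CPM filter. With single libraries left out, 5 to 7 of the 10 genes were higher and 0 to 1 lower, the count of 0 being without conduit replicate 1. Kinase genes were 3 (without conduit replicate 2) to 9 (without untreated replicate 2) higher, while all tested genes gave 2921 and 3774 in those settings against 3711 with all libraries. Kinase genes called lower numbered 0 without conduit replicate 3 and 2 without untreated replicate 1. Lower calls were 1 to 2 among junction genes (1 without untreated replicate 2 or conduit replicate 1), 0 to 1 among other CCN genes, 1 to 2 among serum response genes (2 without untreated replicate 2 or conduit replicate 2) and 4 to 7 among the 22 targets. The log2 difference of the Wwtr1 to Yap1 ratio ran from -0.11 to 0.21 around 0.0015. The cause was not tested. The groups share replicate numbers, and deviations of same-numbered libraries correlated at 0.14, -0.028 and 0.064. Untreated replicates 1 and 3 correlated best with the conduit library of the same number, and untreated replicate 2 with conduit replicate 3 (0.10). With 3 libraries in each group, these values cannot decide whether same-numbered libraries were paired. The replicate block called 3622 genes higher and 3892 lower, and 2 other CCN genes lower, and it changed no call among the 10 genes.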
